A study of Mus musculus with 8 samples.

Results

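The ADAM metalloprotease genes were followed through round spermatids of 4 Miwi genotypes. Members were the genes whose symbol is Adam followed by a number, without the Adamts genes, read on transcript clusters that carry a single gene symbol. This rule gave 34 members of 19938 genes on the array, each with 1 such cluster. It reads gene symbols and no measured value, but the family was chosen with earlier results of these data known. Transcript clusters are the probe groups that the Affymetrix array reads as 1 transcript unit. Round spermatids, the early haploid cells that follow meiosis in the male germ line, had been purified on an albumin gradient from testes of adult C57BL/6 mice. The genotypes differed at Piwil1, which encodes MIWI, the piRNA-binding PIWI protein of these cells. In MIWI +/- a null allele was paired with a wild-type one, and in MIWI +/KI a knock-in allele was. MIWI -/- had null alleles only, and in MIWI -/KI the knock-in allele was paired with a null one. No genotype was wild type on both chromosomes. What the knock-in allele changes is not described in the labels, and the series title is about the catalytic activity of MIWI. Each genotype had 2 arrays labelled as biological replicates. The sources used here do not give the number of animals behind an array. The p-values therefore reflect only how much these preparations varied.

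ADAM proteins are membrane proteins with a metalloprotease domain, a disintegrin domain and usually a cytoplasmic tail. Many cut other membrane proteins and release their outer parts, while others have lost the zinc-binding site and act in adhesion. Mouse germ cells express a large set of testis ADAMs, several of which reach the sperm surface. Among these, ADAM1B and ADAM2 form the fertilin of the sperm surface, ADAM1A and ADAM2 form a fertilin of the endoplasmic reticulum, and ADAM3 is needed for sperm to pass into the oviduct and to bind the egg coat. ADAM3 becomes functional only with the help of chaperones and other proteins of the testis.

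Piwil1 read 389 and 371 in MIWI +/-, 680 and 749 in MIWI +/KI, 196 and 151 in MIWI -/-, and 672 and 696 in MIWI -/KI, in intensity units. The sources used here do not say where its probes lie relative to the null allele's lesion, so these levels do not check the labels. Over all clusters, each of the 4 arrays of MIWI -/- and MIWI -/KI correlated more with some array of another genotype than with its own replicate, at r = 0.9836 for MIWI -/- and 0.97 for MIWI -/KI. MIWI -/KI replicate 1 and MIWI -/- replicate 1 reached 0.9885 with each other, and MIWI -/- replicate 2 reached 0.9872 with MIWI -/KI replicate 1. The lowest correlations of all were those of MIWI -/KI replicate 2 with the MIWI +/- and MIWI +/KI arrays, from 0.9598 to 0.9631, and its highest was 0.9812 with MIWI -/- replicate 1. Counts of calls are also given with arrays left out 1 at a time. They are given too without MIWI -/- replicate 2 and MIWI -/KI replicate 1 together, a pair chosen after seeing the data, whose removal keeps MIWI -/KI replicate 2 as the only array of its genotype and raises the share of all genes called in most comparisons. The summed intensity of 7 elongating spermatid markers was 28991 to 31485 in MIWI +/-, 22070 to 22748 in MIWI +/KI, 7080 to 7623 in MIWI -/- and 8125 to 9504 in MIWI -/KI. The sum of 6 round spermatid markers lay between 9116 and 10668 in all arrays. Single markers did move: 3 lay higher and 3 lower in MIWI -/- than in MIWI +/-, with log2 differences from -0.31 to 0.77. The sum of 11 Sertoli cell markers was 2068 to 2277 in MIWI +/-, 1742 to 2089 in MIWI +/KI, 1244 to 1530 in MIWI -/- and 1138 to 1470 in MIWI -/KI. That of 8 macrophage and blood markers was 2173 to 2316, 1572 to 1678, 1304 to 1322 and 1355 to 1468 in the same order. Most of this sum was Aif1, at 1679.5 and 1577.5 in MIWI +/- and 731.7 to 908.6 in the arrays without a wild-type allele. Of the 8 markers, 4 lay higher and 4 lower without a wild-type allele, with a median log2 difference of 0.03. The sum of 4 Leydig cell markers was 286 to 373, 253 to 329, 323 to 637 and 529 to 561 in that order. The sum of 10 spermatocyte markers was highest in MIWI -/KI replicate 2, at 8739, against 5044 to 7370 in the other arrays. The part of these cell populations in the values below was not tested. In these bulk samples, fewer cells of a type and less RNA per cell cannot be told apart.

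The members were grouped by their known roles into 10 sperm surface ADAMs of the fertilin and cyritestin type, 11 testases and other testis ADAMs, 9 broadly expressed proteases, 3 ADAMs of nerve without protease activity, and the epididymal Adam7. The array signal lay above the median of all clusters for 28 members, among them all 21 of the testis groups. It lay below that median for Adam7, Adam8, Adam12, Adam19, Adam23 and Adam28, so small changes in these 6 would be hard to see. In the gene table of assembly GRCm38.p6, 21 members stood in 7 runs of neighbours with at most 3 protein-coding genes between consecutive members. The longest run held 5 members on chromosome 8, in the order Adam18, Adam3, Adam5, Adam32 and Adam9. Adam1b and Adam1a were neighbours on chromosome 5, and Adam4 and Adam21 on chromosome 12.

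**Figure D1:**
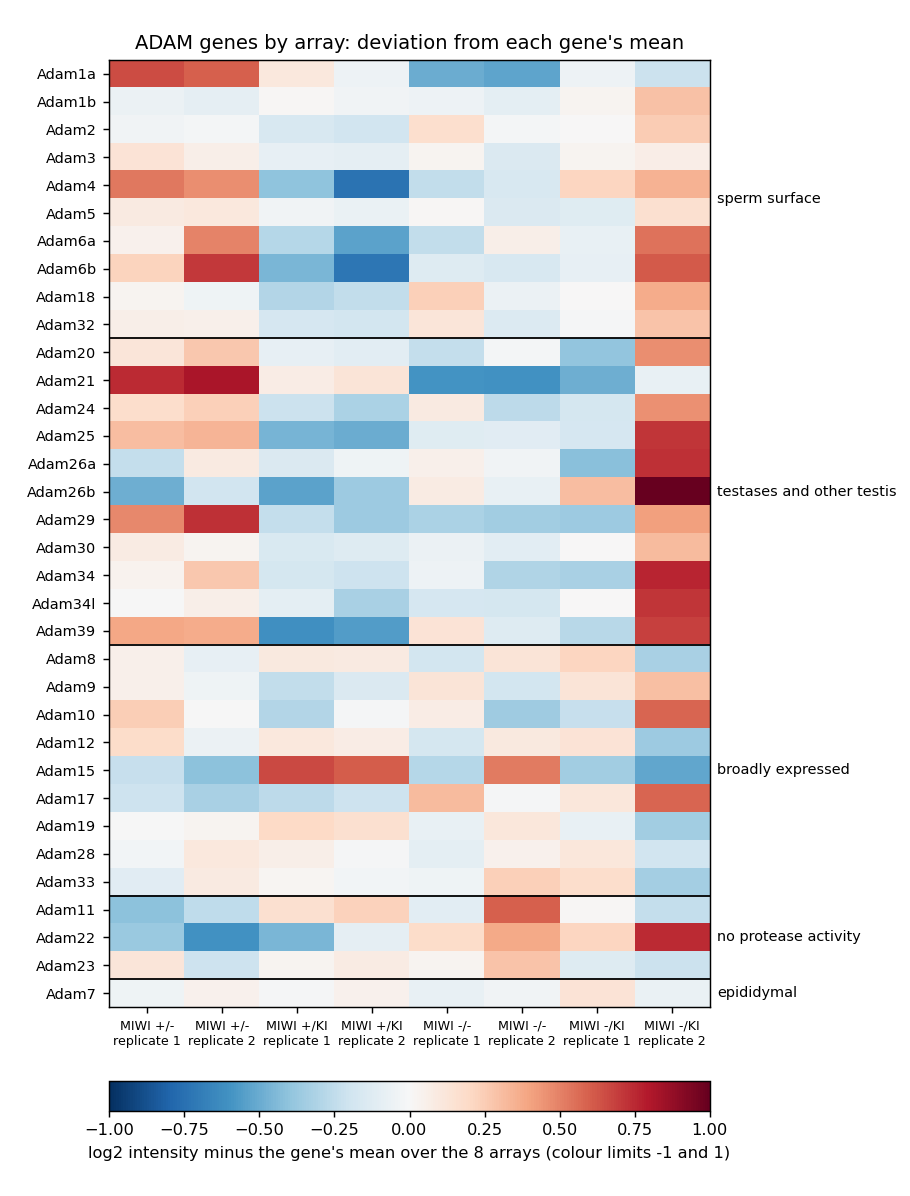
Deviation of each of the 34 ADAM genes from its own mean over the 8 arrays, in log2 intensity, with rows grouped by role and 1 column per array; the colour scale ends at -1 and 1. Adam1a and Adam21 are high in both MIWI +/- arrays and low in both MIWI -/- arrays, and MIWI -/KI replicate 2 is high for many testis ADAMs.

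Loss of MIWI asks which genes depend on the protein, and the null arrays were compared with MIWI +/-. Of the 34 ADAM genes, Adam1a and Adam21 fell in MIWI -/-, no member rose, and 32 did not pass the threshold of an adjusted p under 0.05 (limma, Benjamini-Hochberg over all clusters). Of all genes, 6.13% passed in this comparison, 2.6% upward and 3.53% downward, so the count of 2 in 34 was close to the background. Arrays of the genotypes did not overlap for 18 of 34 members, against 49.4% of all genes. The median log2 difference was -0.08 over the members and 0.01 over all genes. The count was 5 without MIWI -/KI replicate 1 or replicate 2, where Adam22, Adam29 and Adam4 passed too and 10.2% of all genes passed either way, and 3 without the pair of arrays, where 8.75% did.

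In MIWI -/KI against MIWI +/- the count was again 2 lower and 0 higher, and the genes were again Adam1a and Adam21. Of all genes 6.23% passed, 3.11% upward and 3.12% downward, so this count too was close to the background. Arrays did not overlap for 12 of 34 members, against 41.4% of all genes. The count was 0 without MIWI +/- replicate 1 or replicate 2, where 1.81% and 1.73% of all genes passed. It was 7 without MIWI -/KI replicate 1, where 13.9% did, and 10 without the pair of arrays, where 23.2% did. All 10 but Adam1a and Adam21 were upward. Both comparisons use the same MIWI +/- arrays, so they are not independent of each other.

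Adam1a encodes the alpha subunit of the fertilin that stays in the endoplasmic reticulum of the germ cell. Its intensity was 2269.9 and 2182.5 in MIWI +/-, 1551.9 and 1391.4 in MIWI +/KI, 1024.3 in MIWI -/- replicate 1, where the mean was 1012 ± 17.2 (SD, n = 2), and 1394.1 and 1244.7 in MIWI -/KI. The MIWI +/- arrays were the highest and the MIWI -/- arrays the lowest, and the arrays of both knock-in genotypes overlapped between them. Against MIWI +/-, Adam1a fell in MIWI -/- by 1.14 log2 units, a 2.20-fold difference (SE 0.12, limma adjusted p = 0.00173). In MIWI -/KI it fell by 0.76, or 1.69-fold (SE 0.12, limma adjusted p = 0.0123). MIWI +/KI, which has a wild-type allele, also lay lower, with a difference of -0.60 (SE 0.12) that did not pass (limma adjusted p = 0.147). A further contrast set MIWI -/- and MIWI -/KI, which lack a wild-type allele, against MIWI +/- and MIWI +/KI, which hold one; it is called the wild-type allele contrast here. In it Adam1a fell by 0.65 (SE 0.09, limma adjusted p = 0.00388), although 1 array of each side overlapped. The call in MIWI -/KI was lost without MIWI +/- replicate 1 or replicate 2, with array weights and when the fit held those genotypes alone, where the highest adjusted p was 0.129.

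Adam1b, the neighbour of Adam1a and the alpha subunit of the sperm surface fertilin, read 954.1 and 932.8 in MIWI +/-, 998.0 and 969.3 in MIWI +/KI, 956.7 and 924.8 in MIWI -/-, and 1011.5 and 1217.1 in MIWI -/KI. The null arrays overlapped those of MIWI +/-, and the highest value was in MIWI -/KI replicate 2. Its difference in MIWI -/- against MIWI +/- was -0.00 on the log2 scale, with a 95% interval from -0.32 to 0.31 and a limma adjusted p of 0.996. The interval for Adam1a ran from -1.42 to -0.85. The difference between the neighbours was not tested.

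Adam21, a testis ADAM with a catalytic zinc-binding site, read 635.5 and 665.6 in MIWI +/-, 397.0 and 413.7 in MIWI +/KI, 249.4 and 248.3 in MIWI -/-, and 269.4 and 359.0 in MIWI -/KI. The genotypes stood in the order MIWI +/-, MIWI +/KI, MIWI -/KI and MIWI -/-, with no overlap between arrays of neighbouring genotypes. In MIWI -/- against MIWI +/-, Adam21 fell by 1.39 log2 units, a 2.61-fold difference and the largest fall among the members (SE 0.17, limma adjusted p = 0.00332). In MIWI -/KI, Adam21 fell by 1.06, or 2.09-fold (SE 0.17, limma adjusted p = 0.0118). The difference between MIWI -/KI and MIWI -/- was 0.32 (SE 0.17, limma adjusted p = 0.998), and that between MIWI +/KI and MIWI +/- was -0.68 (SE 0.17, limma adjusted p = 0.195). In the wild-type allele contrast it fell by 0.88 (SE 0.12, limma adjusted p = 0.00417). The call in MIWI -/KI was lost without MIWI +/- replicate 1 or replicate 2 and when those genotypes were fitted alone, at adjusted p up to 0.113. Without MIWI -/- replicate 2 and MIWI -/KI replicate 1, the null difference was -1.12 for Adam1a (limma adjusted p = 0.00499) and -1.38 for Adam21 (limma adjusted p = 0.00294). Like Adam1a and Adam21, 7 of 7 elongating spermatid markers fell in MIWI -/- and in MIWI -/KI, where 3.53% and 3.12% of all genes passed downward. The median log2 differences of these markers were -2.83 and -2.13, larger falls than those of Adam1a and Adam21. The part of these cells in the falls of Adam1a and Adam21 was not tested.

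Adam22, a catalytically inactive ADAM known as a receptor of LGI proteins at synapses, was the 1 member that rose in the wild-type allele contrast. It read 133.5 and 113.4 in MIWI +/-, 125.7 and 162.8 in MIWI +/KI, 196.7 and 225.3 in MIWI -/-, and 201.0 and 290.0 in MIWI -/KI. All 4 arrays without a wild-type allele were above all 4 arrays with one. The difference was 0.76 on the log2 scale, or 1.70-fold (SE 0.16, limma adjusted p = 0.0297). In this contrast 3 of 34 members passed, with Adam1a and Adam21 lower. Of all genes 8.26% passed, 4.33% upward and 3.93% downward, so the count was close to the background. Arrays with and lacking a wild-type allele did not overlap for 4 of 34 members, against 15.9% of all genes. The single contrasts missed the threshold, with 0.77 in MIWI -/- (SE 0.23, limma adjusted p = 0.116) and 0.97 for MIWI -/KI (SE 0.23, limma adjusted p = 0.0538), both against MIWI +/-. The call of Adam22 was lost when any 1 of the 6 arrays of MIWI +/-, MIWI +/KI or MIWI -/- was left out, at adjusted p up to 0.154. Without MIWI -/KI replicate 1 the count of members called was 8, with 16.5% of all genes called, and without replicate 2 it was 5, with 8.58%. Without the pair of arrays it was 15, with 26.5% of all genes called and Adam22 at 0.85 (limma adjusted p = 0.0126).

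The promoters of Adam1a, Adam21 and Adam22 are shown because these 3 genes changed with the presence of a wild-type allele, in 2 directions. Each run is the 250 bases before the transcript start, 5′ to 3′ on the gene's strand, from RefSeq on GRCm38.p6, with all letters in lower case since no motif searched was found. Adam1a lies at chr5:121521696-121521945, Adam21 at chr12:81568475-81568724 and Adam22 at chr5:8368161-8368410, all on the minus strand.
Adam1a: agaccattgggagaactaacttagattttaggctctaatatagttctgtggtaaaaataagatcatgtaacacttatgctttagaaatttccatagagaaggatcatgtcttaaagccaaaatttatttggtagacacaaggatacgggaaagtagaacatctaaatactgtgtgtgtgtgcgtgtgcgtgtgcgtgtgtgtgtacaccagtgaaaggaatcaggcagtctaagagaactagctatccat
Adam21: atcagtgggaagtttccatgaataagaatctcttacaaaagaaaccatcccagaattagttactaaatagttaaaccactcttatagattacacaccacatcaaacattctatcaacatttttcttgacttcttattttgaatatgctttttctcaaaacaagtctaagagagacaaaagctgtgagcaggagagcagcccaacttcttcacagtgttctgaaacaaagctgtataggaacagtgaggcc
Adam22: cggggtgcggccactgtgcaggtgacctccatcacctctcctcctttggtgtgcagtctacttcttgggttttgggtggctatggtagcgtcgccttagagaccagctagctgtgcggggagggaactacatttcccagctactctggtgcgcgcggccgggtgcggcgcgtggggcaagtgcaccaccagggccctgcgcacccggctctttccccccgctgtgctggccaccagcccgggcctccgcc
The motifs searched on both strands were the palindrome TGACGTCA, the cAMP response element bound by CREM and CREB proteins in spermatids, and its core TGACGT, which the palindrome contains. Of 32851 promoters of the same length, 1.55% held the palindrome and 6.47% the core. Counted by gene, these shares were 1.77% and 7.29% of 27025 genes. None of the 18 members with a promoter in the table held either, which says only that these letters are not in these windows. The G and C share was 38.0% for Adam1a, 36.0% for Adam21 and 66.8% for Adam22, a description of 3 sequences and no test.

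Adam4, a testis ADAM and neighbour of Adam21, followed another order. It read 661.0 and 631.3 in MIWI +/-, 345.9 and 274.6 in MIWI +/KI, 385.3 and 410.1 in MIWI -/-, and 530.5 and 581.3 in MIWI -/KI. The MIWI +/KI arrays were the lowest, and no arrays of different genotypes overlapped. Adam4 rose by 0.85 on the log2 scale in MIWI -/KI against MIWI +/KI, or 1.80-fold (SE 0.16, limma adjusted p = 0.0453). It was the only member called in this comparison, in which 2.43% of all genes passed, 1.14% upward and 1.29% downward. A count of 1 in 34 was close to that background. Its difference in MIWI +/KI against MIWI +/- was -1.07 (SE 0.16, limma adjusted p = 0.0852), and that in MIWI -/- against MIWI +/- was -0.70 (SE 0.16, limma adjusted p = 0.0513). The call was kept in 8 of 20 other settings of the analysis, over which its adjusted p ran from 0.0115 to 0.446. It was lost with quantile normalization, with array medians subtracted, with array weights, with the replicate number as a block, when those genotypes were fitted alone, and without any 1 of the 8 arrays except MIWI -/KI replicate 1. Without MIWI -/- replicate 1 or replicate 2 the 1 member called was Adam15, which fell. Without the pair of arrays the difference of Adam4 was 0.92 (limma adjusted p = 0.0164). A cluster shared by Adam4 and Gm4787 was not used for the value of Adam4. In log2 intensity it read 10.873 and 10.508 in MIWI +/- and 10.122 and 9.707 in MIWI +/KI. It read 10.259 and 10.084 in MIWI -/- and 10.648 and 10.319 in MIWI -/KI. In this cluster MIWI -/KI overlapped MIWI +/-, and MIWI +/KI overlapped MIWI -/-. Both MIWI -/KI arrays again lay above both MIWI +/KI arrays.

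**Figure D2:**
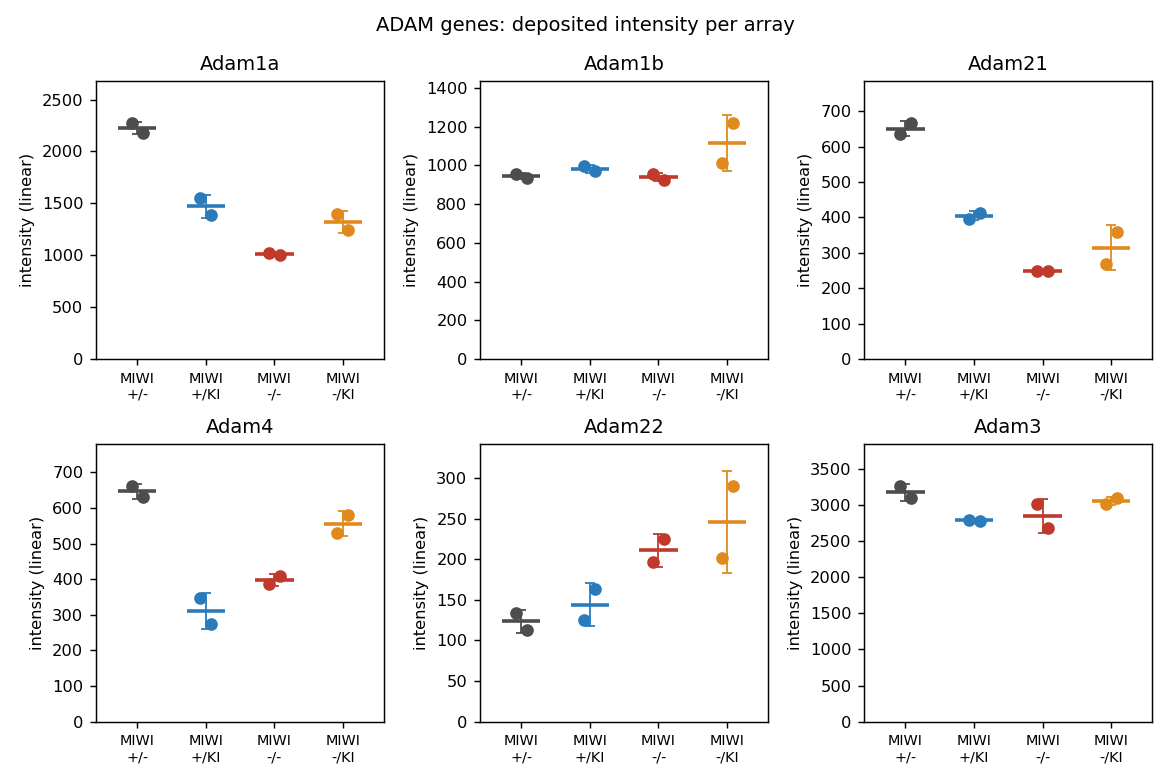
Deposited intensity (linear scale from 0) of 6 ADAM genes in each array, with points for arrays and bars for the mean and SD of 2 arrays per genotype. Adam1a and Adam21 are lowest in MIWI -/-, Adam22 is highest without a wild-type allele, Adam4 is lowest in MIWI +/KI, and Adam1b and Adam3 vary less.

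The other 8 sperm surface ADAMs did not pass in any of the 7 comparisons with all arrays. Adam3, the gene of cyritestin, read 3257.2 and 3087.5 in MIWI +/-, 2795.3 and 2781.6 in MIWI +/KI, 3011.0 and 2675.6 in MIWI -/-, and 3010.2 and 3095.7 in MIWI -/KI. The highest array was 1.22 times the lowest, and the null arrays overlapped those of MIWI -/KI. Its difference in MIWI -/- against MIWI +/- was -0.16, with a 95% interval from -0.40 to 0.08 (limma adjusted p = 0.580), which leaves room for a fall of up to 0.40 on the log2 scale.

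Adam2, the beta subunit of both fertilins, read 1888.0 and 1915.5 in MIWI +/-, 1733.0 and 1693.2 in MIWI +/KI, 2176.8 and 1912.1 in MIWI -/-, and 1946.1 and 2307.2 in MIWI -/KI. The MIWI +/KI arrays were the lowest, and one null array lay between those of MIWI +/-. The difference in MIWI -/- against MIWI +/- was 0.10, with a 95% interval from -0.19 to 0.40 (limma adjusted p = 0.866). Thus the alpha subunit gene Adam1a passed the test downward in the null and the beta subunit gene did not pass. The difference between the subunits was not tested.

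Adam5 and Adam32, which lie beside Adam3 on chromosome 8, differed in MIWI -/- against MIWI +/- by -0.17 (95% interval -0.45 to 0.12) and by -0.06 (-0.38 to 0.26). Adam5 ranged over the 8 arrays from 2553 to 3167 and Adam32 from 1887 to 2613. Adam18, the first of that run, ranged from 845 to 1334. Adam6a, a sperm surface ADAM that stands beside Adam6b, read 1146.2 and 1568.8 in MIWI +/-, 910.9 and 765.5 in MIWI +/KI, 940.0 and 1155.6 in MIWI -/-, and 1058.1 and 1620.6 in MIWI -/KI. The MIWI +/KI arrays were the lowest for Adam6a, and replicates of MIWI +/- and MIWI -/KI lay far apart. Adam6b ranged from 313 to 844 with its lowest arrays in the same genotype. Adam6a and Adam6b are close copies whose probes may read each other, so their values are not independent. Of the 10 sperm surface ADAMs, 2 lay higher and 8 lower in MIWI -/- than in MIWI +/-, with a median of -0.16. Their arrays did not overlap between these genotypes for 5 of 10, against 49.4% of all genes.

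The testases and their relatives are testis ADAMs, several of them predicted to be active proteases. Of the 11, 2 lay higher and 9 lower in MIWI -/- than in MIWI +/-, with a median log2 difference of -0.32, and only Adam21 passed. Their arrays did not overlap between these genotypes for 10 of 11 genes, against 49.4% of all genes. In MIWI -/KI against MIWI +/- the split was 5 higher and 6 lower with a median of -0.05, and again only Adam21 passed. Arrays did not overlap in that comparison for 3 of 11 genes, against 41.4% of all genes. Over all 21 testis ADAMs the split there was 9 higher and 12 lower, and it turned on 1 genotype's arrays: 16 and 5 without MIWI -/KI replicate 1 (median 0.27), and 4 and 17 without its replicate 2 (median -0.34). Adam29, named after its values were seen, read 207.7 and 246.7 in MIWI +/-, 125.7 and 115.4 in MIWI +/KI, 119.4 and 117.0 in MIWI -/-, and 115.4 and 197.9 in MIWI -/KI. The MIWI +/- arrays were the highest, and those of the other genotypes overlapped. Its difference of -0.94 in MIWI -/- missed the threshold (SE 0.25, limma adjusted p = 0.0856) and passed without MIWI -/KI replicate 1, without its replicate 2 and without the pair of arrays. The highest array of Adam26b, also named after its values were seen, was 3.46 times the lowest, the widest range of the members. It read 230.8 and 283.2 in MIWI +/-, 223.8 and 251.8 in MIWI +/KI, 343.5 and 307.9 in MIWI -/-, and 400.9 and 773.4 in MIWI -/KI. All arrays without a wild-type allele were above all with one, yet the difference of 0.79 missed the threshold (SE 0.20, limma adjusted p = 0.0642). Adam26a, Adam26b, Adam34 and Adam34l stand in a run on chromosome 8 and share a further cluster that was not used, so their single values are uncertain.

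Of the 9 broadly expressed proteases, 0 passed in any of the 7 comparisons by limma. At an unadjusted limma p under 0.05 the counts were 0 for MIWI -/- and 1 for MIWI -/KI, each against MIWI +/-. Of all genes, 18.7% and 18% were under it in these comparisons. In MIWI -/KI against MIWI +/KI the count was 4 of 9, where 17.9% of all genes were under it. It was 0 or 1 in the remaining comparisons. Adam10, a main sheddase of the Notch pathway, read 128.5 and 107.6 in MIWI +/-, 88.1 and 106.9 in MIWI +/KI, 113.5 and 84.3 in MIWI -/-, and 92.1 and 162.0 in MIWI -/KI. Its genotypes overlapped except MIWI +/KI and MIWI +/-, and the largest gap was between the replicates of MIWI -/KI. Its difference in MIWI -/- against MIWI +/- was -0.27 (95% interval -0.92 to 0.39, limma adjusted p = 0.824).

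Adam17, the sheddase of TNF and of EGF receptor ligands, read 185.5 and 171.3 in MIWI +/-, 179.1 and 185.7 in MIWI +/KI, 266.6 and 213.2 in MIWI -/-, and 231.6 and 321.1 in MIWI -/KI. All arrays without a wild-type allele were above all arrays with one. The difference was 0.50 on the log2 scale (SE 0.14), which missed the threshold at a limma adjusted p of 0.0898. It passed without MIWI -/KI replicate 1, without the pair of arrays, when dim clusters were left out and with single-symbol clusters only.

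Adam15, a protease with a role in cell adhesion and named after its values were seen, had another order. It read 191.4 and 169.1 in MIWI +/-, 354.7 and 341.5 in MIWI +/KI, 183.6 and 322.2 in MIWI -/-, and 175.9 and 156.8 in MIWI -/KI. Both MIWI +/KI arrays and MIWI -/- replicate 2 were high, and the other 5 arrays were low. In MIWI +/KI against MIWI +/- the difference was 0.95 (SE 0.25, limma adjusted p = 0.220), and in MIWI -/KI against MIWI +/KI it was -1.07 (SE 0.25, limma adjusted p = 0.0876), which passed without MIWI -/- replicate 1 or replicate 2 and when dim or several-symbol clusters were left out. Pcsk4, the proprotein convertase of germ cells, had the same arrays high, at 1196.9 and 1199.9 in MIWI +/KI and 1229.7 in MIWI -/- replicate 2 against 462.0 to 766.5 in the other 5. Of the rest, Adam9 ranged from 126 to 184 and Adam33 from 69.2 to 103, and Adam8, Adam12, Adam19 and Adam28 did not exceed 70.8 in any array.

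Of the nerve ADAMs, Adam11 ranged from 107 to 215 with its highest array in MIWI -/- replicate 2, and Adam23 from 49.1 to 69.5. Adam7, which is made in the epididymis and passed to sperm there, ranged from 20.0 to 23.2. All 5 epididymis markers measured were also below the median of all clusters, with a summed intensity of 162 to 196.

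**Figure D3:**
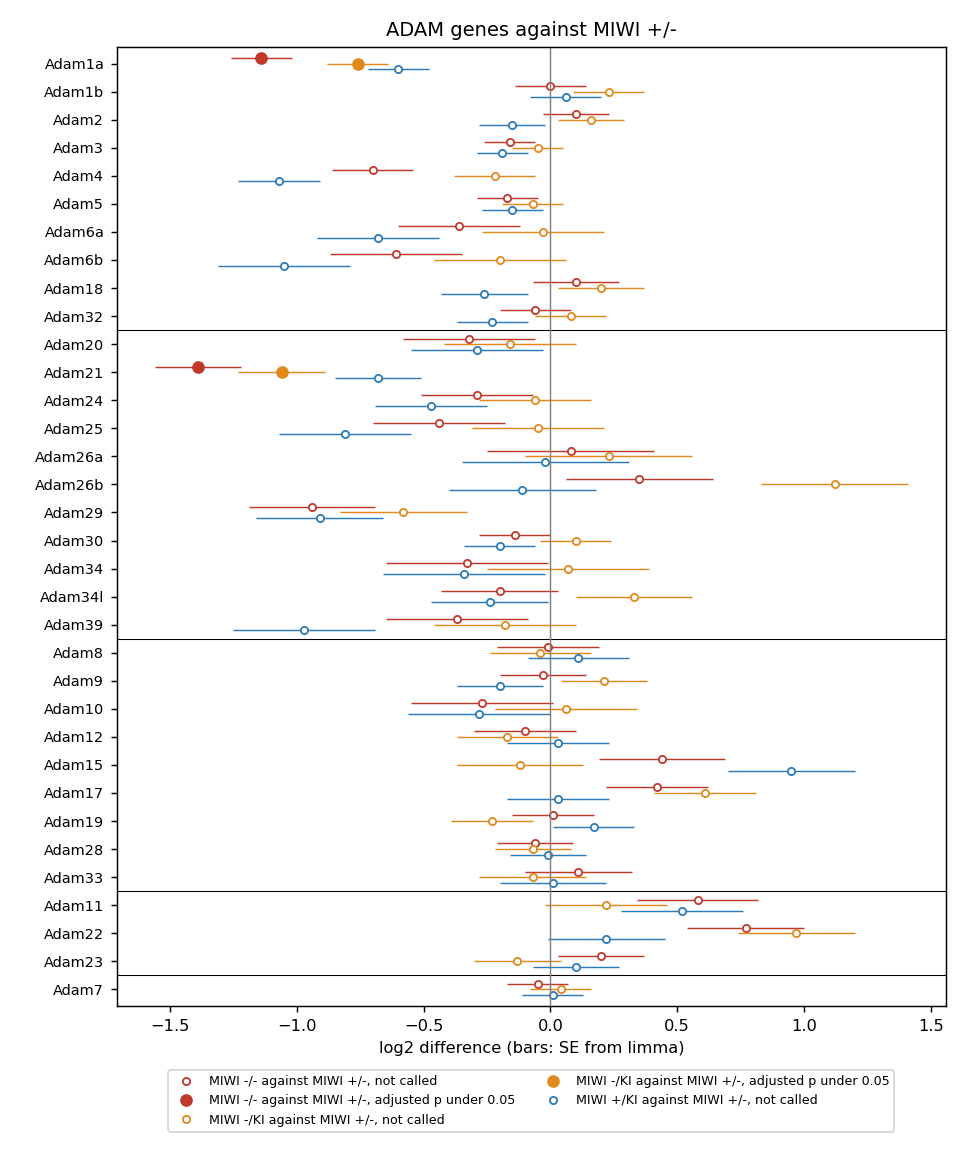
Log2 difference of each ADAM gene from MIWI +/- in the other 3 genotypes, with bars for the SE from limma and filled points where the adjusted p was under 0.05; lines separate the roles. Filled points stand at Adam1a and Adam21 in MIWI -/- and MIWI -/KI, and most testis ADAMs lie left of 0 in MIWI +/KI.

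MIWI +/KI against MIWI +/- compares genotypes that both keep a wild-type allele. No member passed in limma, where 0.0953% of all genes did, 0.0251% upward and 0.0702% downward, and 9 of 34 members had an unadjusted p under 0.05, against 11.7% of all genes. Of the 21 testis ADAMs, 20 lay lower in MIWI +/KI and 1 higher, with a median log2 difference of -0.29 against 0.02 over all genes, and the split was the same with quantile normalization and with array medians subtracted. Their arrays did not overlap for 19 of 21, or 90.5%, against 56.9% of all genes. In 9 of 21 testis ADAMs both MIWI +/KI arrays were the lowest of the 8, as they were in 6.23% of all genes, and in 0 of the other 13 members. The largest differences were -1.07 in Adam4, -1.05 in Adam6b and -0.97 in Adam39. The count called was 8 of 21 without the pair of arrays, 8 with array weights and 8 when those genotypes were fitted alone, where 7.27%, 9.02% and 7.39% of all genes passed. It was 0 without any 1 array, where at most 0.135% of all genes passed. The summed elongating spermatid markers were also lower in MIWI +/KI than in MIWI +/-, as given above, and the part of those cells was not tested.

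MIWI -/KI against MIWI -/- compares genotypes without a wild-type allele that differ in whether a knock-in allele is present. By limma 0 of 34 members passed, 0% of all genes passed, and 4 of 34 members had an unadjusted p under 0.05, against 4.55% of all genes. All 21 testis ADAMs lay higher in MIWI -/KI, with a median log2 difference of 0.24 against -0.01 over all genes, and this held with quantile normalization and with array medians subtracted. Arrays did not overlap for 8 of 21, or 38.1%, against 22.8% of all genes. The common direction rested on 1 array: without MIWI -/KI replicate 2 the split was 10 higher and 11 lower, with a median of -0.01. MIWI -/KI replicate 2 was the highest of the 8 arrays in 15 of 21 testis ADAMs, or 71.4%, and in 4 of the other 13 members, against 21.7% of all genes. The same array had the highest sum of spermatocyte markers, and the part of spermatocytes was not tested.

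MIWI -/KI against MIWI +/KI also depended on MIWI -/KI replicate 2. Of the 21 testis ADAMs, 19 lay higher in MIWI -/KI and 2 lower, with a median of 0.33, and 14 lay higher and 7 lower without replicate 2 of MIWI -/KI. Of the 34 members, 14 passed upward when MIWI -/KI replicate 1 was left out and 0 when replicate 2 was left out, against 1 with both. Of all genes 7.91% passed upward in the former fit and 1.27% passed either way in the latter. The count was also 0 without MIWI +/- replicate 1 or 2 and without MIWI +/KI replicate 1 or 2. Arrays did not overlap for 22 of 34 members, against 49.1% of all genes. Without MIWI -/KI replicate 1 and MIWI -/- replicate 2 together, 20 members passed upward and 2 downward, where 15.4% of all genes passed upward and 13.5% downward. Where 1 array stands for a genotype, it is assumed to vary like the others. The 2 testis ADAMs that lay lower were Adam1a, at -0.16 (95% interval -0.44 to 0.13), and Adam21, at -0.38 (-0.78 to 0.01).

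The change from MIWI +/KI to MIWI -/KI was also set against that from MIWI +/- to MIWI -/-. For 21 of 21 testis ADAMs the former was the higher, with a median difference of 0.74 on the log2 scale against -0.03 over all genes. The same contrast is the difference of MIWI -/KI from MIWI -/- minus that of MIWI +/KI from MIWI +/-. Its direction thus largely follows from the splits already given for those comparisons and is not a further result. The median of the contrast over these genes was 0.38 without MIWI -/KI replicate 2, with 20 higher and 1 lower, and 1.01 without its replicate 1. By limma 0 of 34 members passed, as did 0% of all genes, and 11 of 34 had an unadjusted p under 0.05, against 13% of all genes. For Adam1a the difference of the differences was 0.98 (SE 0.17, limma adjusted p = 0.111) and for Adam4 it was 1.55 (SE 0.23, limma adjusted p = 0.0888). Without MIWI -/- replicate 1 the count was 1 (Adam15), and without MIWI -/KI replicate 1 it was 1 (Adam25). Without MIWI -/- replicate 2 and MIWI -/KI replicate 1 together it was 5, namely Adam4, Adam21, Adam25, Adam29 and Adam39. The shares of all genes called in these 3 fits were 1.21%, 0.241% and 1.16%.

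Genes listed for the folding, maturation, carriage or inhibition of ADAMs made up 5 groups, of which 49 of 51 genes were measured. In MIWI -/- against MIWI +/-, 4 passed upward and 4 downward. These counts were 2 and 4 in MIWI -/KI, and in the wild-type allele contrast 5 and 4. The totals of 8, 6 and 9 in 49 stood against 6.13%, 6.23% and 8.26% of all genes. The medians over the 49 genes were 0.04, -0.04 and 0.00. Without the pair of arrays, the calls in MIWI -/KI were 9 upward and 8 downward, and those in the wild-type allele contrast 11 and 9, where 23.2% and 26.5% of all genes passed. In MIWI -/- the total of 8 became 3 without MIWI +/- replicate 1, 2 without replicate 2, 4 without MIWI +/KI replicate 1 or 2, and 5 without MIWI -/- replicate 1 or 2, as the share of all genes fell to between 1.88% and 4.77%. For MIWI -/KI the total of 6 became 3 and 2 without MIWI +/- replicate 1 and 2, and 11 without MIWI -/KI replicate 1, where 1.81%, 1.73% and 13.9% of all genes passed. In the wild-type allele contrast the total of 9 became 5 and 4 without MIWI +/- replicate 1 and 2, 4 and 5 without MIWI +/KI replicate 1 and 2, and 14 without MIWI -/KI replicate 1, where 3.28% to 4% of all genes passed in the first 4 of these fits and 16.5% in the last.

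Among the 11 genes of folding and quality control, 2 passed upward and 1 downward in MIWI -/- against MIWI +/-, against the same 6.13% of all genes. Calr3, the testis calreticulin needed for ADAM3 to fold, read 465.6 and 472.2 in MIWI +/-, 286.4 and 231.4 in MIWI +/KI, 205.2 and 199.8 in MIWI -/-, and 256.7 and 219.8 in MIWI -/KI. The MIWI +/- arrays were the highest, and those of the knock-in genotypes overlapped. In MIWI -/- Calr3 fell by 1.21 (2.32-fold, SE 0.17, limma adjusted p = 0.00590) and in MIWI -/KI by 0.98 (SE 0.17, limma adjusted p = 0.0152). Both calls were lost without MIWI +/- replicate 1 or replicate 2, and that in MIWI -/KI also with array weights and when those genotypes were fitted alone.

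Calr, its counterpart in other tissues, read 1273.3 and 1244.0 in MIWI +/-, 1675.1 and 1663.7 in MIWI +/KI, 1806.6 and 1830.0 in MIWI -/-, and 1536.5 and 1574.5 in MIWI -/KI. The MIWI +/- arrays were the lowest and the MIWI -/- arrays the highest. It rose by 0.53 in MIWI -/- (SE 0.11, limma adjusted p = 0.0305). Tpst2, which adds sulfate to tyrosines of secreted proteins, rose by 0.79 in MIWI -/- (SE 0.17, limma adjusted p = 0.0436) and by 0.85 in MIWI -/KI (SE 0.17, limma adjusted p = 0.0313). The membrane chaperone gene Canx rose by 0.40 in the wild-type allele contrast (SE 0.08, limma adjusted p = 0.0245). These calls were each lost without replicate 1 or 2 of MIWI +/- or of MIWI +/KI. Those of Calr and of Tpst2 in MIWI -/- were also lost without replicate 1 or 2 of MIWI -/-, and that of Canx without MIWI -/- replicate 1. Both calls of Tpst2 were lost with quantile normalization and when the compared genotypes were fitted alone. Its call in MIWI -/- was also lost with the replicate number as a block, and that in MIWI -/KI with array weights. The call of Calr was lost without the intensity trend and when the compared genotypes were fitted alone. Clgn, the testis calmegin that chaperones the fertilin subunits, differed by 0.17 in the wild-type allele contrast (SE 0.08, limma adjusted p = 0.330). Pdilt, the testis disulfide isomerase that works with Calr3, differed by 0.41 (SE 0.10, limma adjusted p = 0.050023).

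Of 12 other genes listed for the maturation of ADAM3, 3 fell and 1 rose in MIWI -/-, and as many in MIWI -/KI, where 6.13% and 6.23% of all genes passed. Whether each listed gene is needed for ADAM3 was not checked. Prss37, a protease-like protein of the testis, read 1382.3 and 1417.3 in MIWI +/-, 755.2 and 726.8 in MIWI +/KI, 440.5 and 462.3 in MIWI -/-, and 621.1 and 660.0 in MIWI -/KI. No arrays of different genotypes overlapped. It fell by 1.63 in MIWI -/- (3.10-fold, SE 0.13, limma adjusted p = 0.000366) and by 1.13 in MIWI -/KI (SE 0.13, limma adjusted p = 0.00245), and both calls held in each of 20 other settings.

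Prss55, a serine protease gene of the testis, fell by 1.38 in MIWI -/- (SE 0.19, limma adjusted p = 0.00595) and by 1.44 in MIWI -/KI (SE 0.19, limma adjusted p = 0.00531). Both calls were lost without MIWI +/- replicate 2. Ace, whose testis form is needed for ADAM3 to reach its place on sperm, fell by 1.01 in MIWI -/- (SE 0.19, limma adjusted p = 0.0253) and by 1.36 in MIWI -/KI (SE 0.19, limma adjusted p = 0.00696). The call of Ace in MIWI -/- was lost without replicate 1 or 2 of MIWI +/- or of MIWI +/KI or without MIWI -/- replicate 1 and when those genotypes were fitted alone, and that in MIWI -/KI without replicate 1 or 2 of MIWI +/-.

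Tex101, a GPI-anchored partner of ADAM3 that is released from the germ cell surface, moved the other way. It read 326.0 and 368.3 in MIWI +/-, 555.6 and 492.6 in MIWI +/KI, 2166.5 and 1511.5 in MIWI -/-, and 2021.0 and 1779.0 in MIWI -/KI. All arrays without a wild-type allele were far above all arrays with one. It rose by 2.38 on the log2 scale in MIWI -/- (5.22-fold, SE 0.19, limma adjusted p = 0.000445) and by 2.45 in MIWI -/KI (5.47-fold, SE 0.19, limma adjusted p = 0.000523), and both calls held in each of 20 other settings. Cmtm2b, Slc22a14 and Pmis2 did not pass, with differences of 0.15, 0.20 and -0.35 in the wild-type allele contrast (SE 0.10, 0.09 and 0.11).

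**Figure D4:**
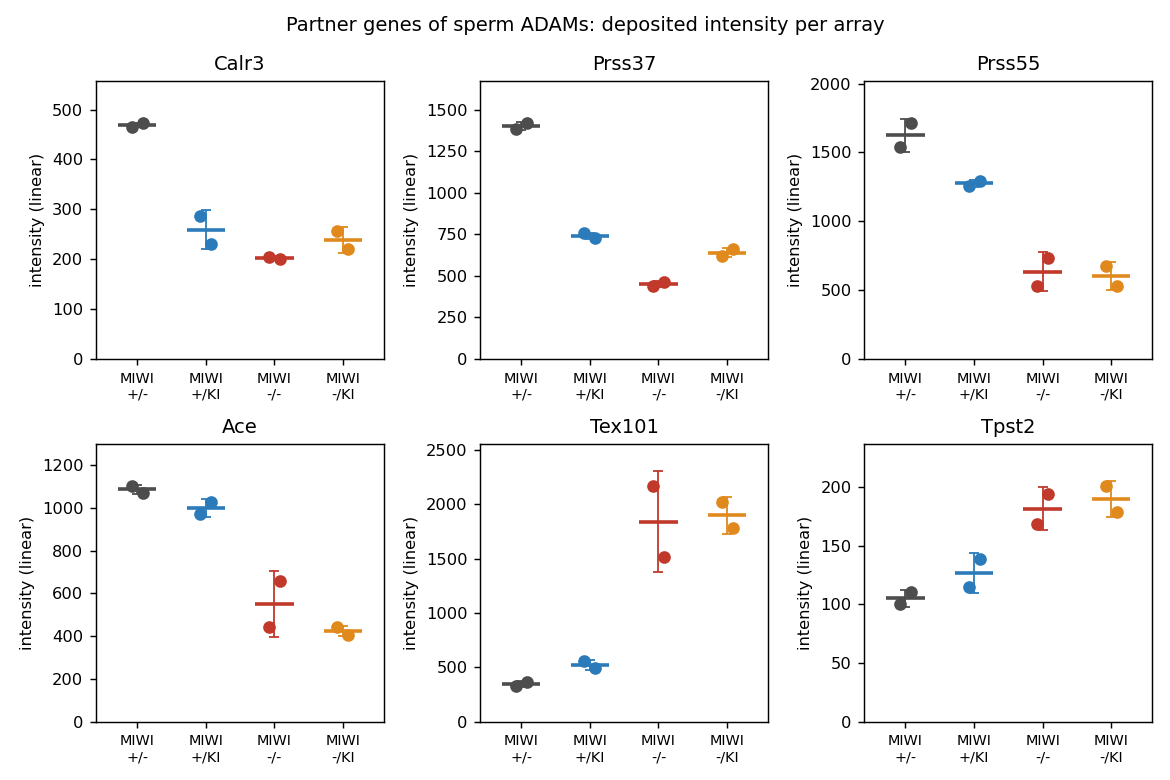
Deposited intensity (linear scale from 0) of 6 genes that act on sperm ADAMs, with points for arrays and bars for the mean and SD of 2 arrays per genotype. Calr3, Prss37, Prss55 and Ace are highest in MIWI +/-, and Tex101 and Tpst2 are higher in all arrays without a wild-type allele than in all arrays with one.

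Of 7 proprotein convertases, which remove the inhibitory prodomain of ADAMs and other proteins, Mbtps1 rose by 0.72 in MIWI -/- against MIWI +/- (SE 0.16, limma adjusted p = 0.0422). Of all genes 6.13% passed there. The call of Mbtps1 was lost with quantile normalization, with array medians subtracted and when those genotypes were fitted alone. It was also lost without replicate 1 or replicate 2 of MIWI +/-, of MIWI +/KI or of MIWI -/-. Mbtps1 passed upward in the wild-type allele contrast too, where the call was kept in 12 of 19 other settings. Of 12 carriers of ADAM10 and ADAM17, Tspan15, a tetraspanin that accompanies ADAM10, rose by 1.15 in the wild-type allele contrast (SE 0.22, limma adjusted p = 0.0188). The other 11 did not pass. In this contrast 8.26% of all genes passed, so a count of 1 in 12 was close to the background. The call was lost without MIWI +/- replicate 2 and without replicate 1 or replicate 2 of MIWI +/KI or of MIWI -/-. Of 7 inhibitors of metalloproteases, 0 passed by limma in any of the 7 comparisons. In MIWI -/- against MIWI +/-, 1 had an unadjusted p under 0.05, as did 18.7% of all genes. The membrane inhibitor gene Reck differed by 0.65 in that comparison (SE 0.20, limma adjusted p = 0.141). Of 19 ADAMDEC and ADAMTS relatives, secreted enzymes of the same wider family, Adamts9 fell by 1.10 in MIWI -/- (SE 0.16, limma adjusted p = 0.00810), and 18 did not pass. A count of 1 in 19 was close to the 6.13% of all genes.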

How the data were processed

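Total RNA of round spermatids was measured on 8 Affymetrix arrays, 2 per genotype. The authors deposited 1 summarised intensity per transcript cluster and array on a linear scale, made with RMA per the submitters' processing notes; its version, the annotation and the build behind it are not given in the sources used here. Array medians lay between 66.6 and 71.8, and precision is limited by having 2 arrays per genotype. In 8 cells the value exceeded the cluster's median in the remaining arrays by more than 100-fold and had no decimals; these were taken as missing, and none belonged to an ADAM gene. Log2 of each intensity was fitted in limma 3.58.1 (R 4.3.3) over all 35512 clusters, with 1 mean per genotype from all 8 arrays, moderated variances with an intensity trend, 7 two-sided contrasts and Benjamini-Hochberg adjustment over all clusters. A gene passed at an adjusted p under 0.05. A fold is the antilog of a difference between mean log2 intensities, and SE is the moderated standard error.

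Symbols came from the platform annotation, and clusters with several symbols were left out. All 34 members matched the mouse gene table of GRCm38.p6, which was used for names and neighbours. Probes were not aligned, so cross-hybridisation between family members was not examined. Promoters came from RefSeq; protein sequences were not used here. Named members were those that passed in any comparison, Adam1a, Adam1b, Adam2, Adam3, Adam10 and Adam17, and the 6 members with the highest mean. Partner genes were named where they passed, with up to 4 others per list by mean level. The members and lists were chosen with earlier results of these data known. Replicate numbers were checked for pairing: deviations of same-numbered arrays correlated between -0.258 and 0.297 over pairs of genotypes, so the numbers were not used as a block. Alternatives changed the handling of the 8 cells, the normalization between arrays, a pseudocount of 16, the variance prior, array weights, the arrays fitted, a replicate block, the filter on dim clusters, the clusters tested and each array in turn; leaving out 2 arrays together was chosen after seeing the data. The model script was tested on simulated data.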

Additional observations from a re-analysis of the deposited data

How the results depend on the processing

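Counts are of members that passed, in limma with Benjamini-Hochberg adjustment, and 0 single-gene results changed direction while called. Among named members, 1664 single-gene results under another setting kept their side of the threshold, 25 lost a call and 51 gained one. Leaving out 1 array at a time gave 2 to 5 members in MIWI -/- against MIWI +/- (2 with all arrays), 0 to 7 in MIWI -/KI against MIWI +/- (2), 0 to 14 in MIWI -/KI against MIWI +/KI (1), 2 to 8 in the wild-type allele contrast (3) and 0 to 1 in the difference of the differences (0). For partner genes the ranges were 2 to 10 in MIWI -/- (8), 2 to 11 in MIWI -/KI (6) and 4 to 14 in the wild-type allele contrast (9). Leaving out dim clusters gave 4 members in MIWI -/- against MIWI +/-, 4 in MIWI -/KI against MIWI +/-, 3 when the control was MIWI +/KI, 1 in MIWI +/KI against MIWI +/-, 5 in the wild-type allele contrast and 2 in the difference of the differences. Testing single-symbol clusters only gave 5, 4, 3, 3, 5 and 4 in that order, and 10 partner genes in MIWI -/KI against MIWI +/-. Both adjust over fewer clusters, and the shares of all genes called were 14.2%, 13.4%, 7.86%, 1.04%, 17.5% and 1.5% in the former and 9.96%, 9.43%, 6.2%, 1.35%, 12.4% and 2.21% in the latter. Fitting the compared genotypes alone, the counts were 0 in MIWI -/KI against MIWI +/-, 0 in MIWI -/KI against MIWI +/KI, 10 in MIWI +/KI against MIWI +/-, and 5 partner genes in MIWI -/- against MIWI +/-; this fit was not run for the contrasts that use all genotypes. Array weights gave 1, 0 and 9 members in the first 3 of these comparisons. With the genotypes fitted alone, 2.44%, 0.502%, 7.39% and 4.77% of all genes passed in the order given. With array weights 3.59%, 1.26% and 9.02% of all genes passed. In MIWI -/KI against MIWI +/KI, quantile normalization and subtracted array medians each gave 0 members, without Adam4. The replicate block also gave 0 there, at the loss of Adam4, and changed no other call of a named member, though Tpst2 in MIWI -/- no longer passed; same-numbered arrays share only a number. Without MIWI -/- replicate 2 and MIWI -/KI replicate 1 together, chosen after seeing the data, the counts were 10 in MIWI -/KI against MIWI +/-, 22 against MIWI +/KI, 10 in MIWI +/KI against MIWI +/-, 15 in the wild-type allele contrast and 5 in the difference of the differences, with 17 and 20 partner genes for MIWI -/KI against MIWI +/- and for the wild-type allele contrast. There 23.2%, 28.8%, 7.27%, 26.5% and 1.16% of all genes passed in the order of the members' counts. The cause of these shifts was not tested. Adam1a and Adam21 passed in each of 20 settings in MIWI -/- against MIWI +/- and each of 19 in the wild-type allele contrast, with adjusted p up to 0.0296 and 0.0424 for Adam1a and 0.049954 and 0.0354 for Adam21. Signal near background limits Adam7, Adam8, Adam12, Adam19, Adam23 and Adam28.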
